A study of Homo sapiens with 12 samples.

Results

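PAR-CLIP clusters in 6 genes of the oncofetal let-7 network were examined in HepG2 cells, which derive from a human liver tumour. The genes encode the RNA-binding proteins IGF2BP1, IGF2BP2 and IGF2BP3, the let-7 regulator LIN28B, and the chromatin proteins HMGA1 and HMGA2. They were chosen by name, and a cluster was assigned to a gene when its midpoint lay on the same strand within the GENCODE release 44 gene. Of 102250 clusters in 12 libraries, 308 (0.301%) lay in these genes, and overlapping clusters merged into 106 sites of 45174 in the whole series.

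PAR-CLIP labels RNA with 4-thiouridine, crosslinks it to protein with ultraviolet light and sequences the RNase T1 fragments that are precipitated with the protein. All 12 libraries came from wildtype HepG2 cells treated in this way. IGF2BP1 and IGF2BP2 had 2 libraries each, IGF2BP3 had 2 libraries and 2 more with the label bio2, and METTL1 and WDR4, which together form a methyltransferase that makes internal m7G in RNA, had 2 each. The 3 IGF2BP proteins were examined in the study as readers of that mark. The 8 IGF2BP libraries were compared with the 4 METTL1 and WDR4 libraries, and no input or mock library was used here. A single cell line was studied, and RNA levels were not analysed here, so that a cluster count cannot be told apart from the abundance of its RNA.

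The libraries held 4581 to 15701 clusters. Each file lists intervals with no read counts, so the depth behind a cluster is unknown, and a gene without a cluster is not shown to be unbound. The share of clusters in exons of protein-coding genes was 51.3% to 61.0% in the IGF2BP libraries and 24.9% to 33.1% in the METTL1 and WDR4 libraries. Of 8 hepatocyte genes examined, 7 had a cluster, and APOB, the core protein of liver lipoprotein particles, had 350. TTR, also a plasma protein of hepatocytes, had none. Among 7 genes of blood, endothelium and fibroblasts, CD68 had 1 cluster and the other 6 had none.

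The let-7 microRNAs bind partly complementary sites in mRNA, mostly through bases 2 to 8 (the seed), and lower the output of the mRNAs they bind. Their level is low in embryonic cells and in many tumours, where LIN28B binds let-7 precursors and blocks their maturation. HMGA2, LIN28B and IGF2BP1 are long-known let-7 targets, and IGF2BP proteins are themselves made in the fetus and again in liver cancer. RefSeq (GRCh38.p14) gave 9 mature let-7 and miR-98 sequences, which shared 1 seed. The first, a middle and the last of them by name are shown with the seed in capitals, because the target sites below are its complement.
hsa-let-7a-5p: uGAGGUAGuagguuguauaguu
hsa-let-7e-5p: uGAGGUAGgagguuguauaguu
hsa-miR-98-5p: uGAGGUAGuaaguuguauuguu

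In the 3′ UTRs of the 6 canonical transcripts, 15 matches to the seed complement CTACCTC were found on the sense strand, with at least 1 in every gene. They numbered 4 each in IGF2BP1, LIN28B and HMGA2, and 1 each in IGF2BP2, IGF2BP3 and HMGA1. Among 4311 protein-coding genes with a PAR-CLIP site in the 3′ UTR, 17.1% held such a match. The 6 genes were chosen for their link to let-7, so this contrast was partly fixed by the choice. The length of the 3′ UTR was not matched, and IGF2BP3 had no site in its own. The matches that lay inside a site, the one nearest to a site without being covered, and the match of IGF2BP3 are printed as windows of 30 nt in hg38, 5′ to 3′ on the strand of the gene, with the match in capitals.
HMGA2 match 2, chr12:65964537-65964566 (+): actactcaataCTACCTCtgaatgttacaa
HMGA2 match 4, chr12:65965802-65965831 (+): aaaacacactaCTACCTCttaagtcccagt
HMGA1 match 1, chr6:34245833-34245862 (+): ctgttcacaaaCTACCTCtggacagttgtg
LIN28B match 2, chr6:105081243-105081272 (+): gatgatagtaaCTACCTCtgagtttgacac
IGF2BP3 match 1, chr7:23311784-23311813 (-): tttttactcaaCTACCTCaggtattcagta

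Clusters were found in all 6 genes, but their place in the transcript differed between them. IGF2BP1, HMGA1 and HMGA2 carried most of their sites in the 3′ UTR, whereas the sites of IGF2BP2 and LIN28B lay largely in introns, and IGF2BP3 had none in its 3′ UTR or coding sequence. Of the 106 sites, 41 lay in 3′ UTRs, 54 in introns, 7 in 5′ UTRs, 3 in exons of non-coding transcripts and 1 in coding sequence. Sites bound in IGF2BP libraries alone numbered 38, those in METTL1 or WDR4 libraries alone 45, and those in both 23.

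Introns and 3′ UTRs differed in which libraries held their sites. Of the 54 intronic sites, 39 (72.2%) were seen in METTL1 or WDR4 libraries alone, beside 62.1% of the 14881 intronic sites of all protein-coding genes, and 37 of these 39 were in 1 library. Of the 41 sites in 3′ UTRs, 2 (4.88%) were seen in METTL1 or WDR4 libraries alone and 15 (36.6%) in both kinds, beside 14.9% and 22.995% of all 11137 3′ UTR sites. A site in 1 library made up 19.5% of the 3′ UTR sites in the 6 genes and 40.2% of all 3′ UTR sites. These shares are given as a description with no test.

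**Figure D1:**
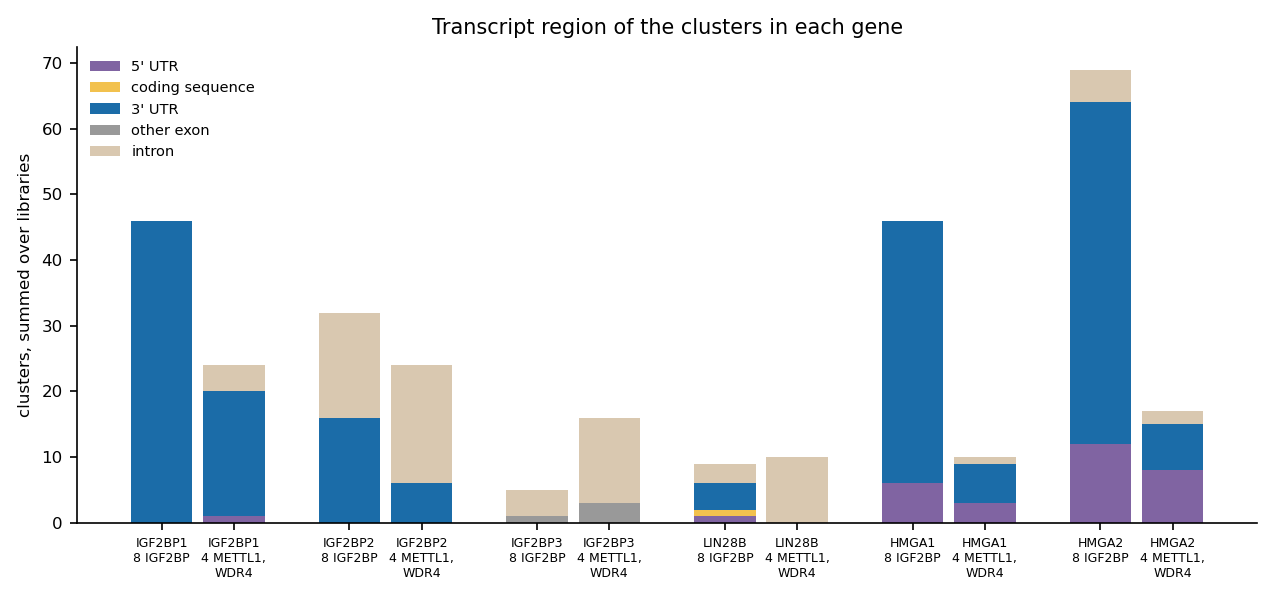
Clusters in each gene by transcript region, summed over the 8 IGF2BP libraries and over the 4 METTL1 and WDR4 libraries; the y axis counts clusters and colours mark regions. In the IGF2BP libraries all 46 clusters of IGF2BP1 lay in the 3′ UTR, while 16 of 32 clusters of IGF2BP2 and 4 of 5 of IGF2BP3 lay in introns.

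The IGF2BP1 mRNA, which encodes an oncofetal protein that stabilises many of its target mRNAs, carried 19 sites (chr17:48997385-49056145, + strand). With IGF2BP1 precipitated there were 13 and 10 clusters in this gene, with IGF2BP2 7 and 7, and with IGF2BP3, in the pair that had no bio2 label, 6 and 3. Both bio2 libraries held 0. METTL1 had 7 and 8 in its libraries, and WDR4 6 and 3. The 2 groups overlapped, because the bio2 libraries lay below and the other IGF2BP libraries within or above the range of METTL1 and WDR4.

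All 46 clusters of the IGF2BP libraries in the IGF2BP1 gene lay in its 3′ UTR, which is 6701 nt long. Of the 24 clusters in METTL1 and WDR4 libraries, 19 lay there, and the remaining 4 intronic clusters and 1 in the 5′ UTR were each seen in 1 library. The 14 sites in this 3′ UTR spread from 99 to 6368 nt after the stop codon, measured at the site centre, and 8 of them were seen in both kinds of library. Sites 11 and 17, at 1228 and 5152 nt, were seen in 10 libraries, in both libraries of every protein other than the bio2 pair. Site 7, at 182 nt, was seen in 8 libraries.

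The central 30 nt of these sites are shown because they ranked first by number of libraries. All 5 proteins were also found at sites 6 and 15, which are not shown. CAUA, CAUC and CAUU, forms of the short element often found at IGF2BP sites, would be in capitals, and none was present in the windows shown.
IGF2BP1 site 7, chr17:49049612-49049641 (+): ctctcagccccaaacacccacccaattggc
IGF2BP1 site 11, chr17:49050658-49050687 (+): ttaactgacggcttctgtctccatgaatca
IGF2BP1 site 17, chr17:49054582-49054611 (+): tttggcctccagcttgtccctctctcactt

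None of the 4 let-7 matches of IGF2BP1 lay inside a site. The closest, at 4269 nt, was 112 nt from site 15, which was seen in 8 libraries, and the other 3 were 202 to 384 nt from the nearest site. All 14 sites had a centre of 20 nt found once in the genome.

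The IGF2BP2 gene (chr3:185643130-185825042, - strand) encodes the family member most widely kept in adult tissues. It held 25 sites, of which 21 were intronic and 4 lay in the 3′ UTR. The IGF2BP1 libraries held 5 and 6 clusters in this gene, the IGF2BP2 libraries 3 and 3, the IGF2BP3 libraries 5 and 5 and the bio2 libraries 3 and 2. METTL1 had 4 and 5 clusters, and WDR4 had 7 and 8. The groups overlapped in their rates, and the lowest 3 were 1 bio2 library and both IGF2BP1 libraries.

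The IGF2BP libraries divided their 32 clusters equally, with 16 in introns and 16 in the 3′ UTR, while 18 of the 24 METTL1 and WDR4 clusters were intronic. Of the 21 intronic sites, 15 were seen in METTL1 or WDR4 alone and each of these in 1 library. Intronic site 9 was seen in 8 libraries, namely both libraries of IGF2BP1, IGF2BP2, WDR4 and the IGF2BP3 pair without the bio2 label. Intronic site 17 was seen in all 4 IGF2BP3 libraries and 1 IGF2BP1 library, and in none of IGF2BP2, METTL1 and WDR4.

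The 4 sites in the IGF2BP2 3′ UTR lay between 511 and 904 nt after the stop codon. Site 24 was seen in 8 libraries and site 22 in 7, and site 25, directly downstream of site 24, was seen in 6 libraries, all of them IGF2BP1 or IGF2BP3. Site 24 was made up of 91.8% pyrimidines, and its centre occurred at 10 places in the genome. The let-7 match at 1304 nt was 386 nt from site 25. The most shared intronic and 3′ UTR sites read as follows.
IGF2BP2 site 9, intron, chr3:185755956-185755985 (-): ctggcccctccaatctcatgtccttctcac
IGF2BP2 site 24, 3′ UTR, chr3:185644658-185644687 (-): ctctcccctccctcccctccccttcttctc

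The IGF2BP3 gene (chr7:23310209-23470491, - strand), whose protein is nearly absent from most adult tissues and returns in tumours, held 16 sites, of which 13 were intronic and 3 lay in exons of non-coding transcripts. METTL1 had 4 clusters in each library, as had WDR4. The IGF2BP1 libraries held 3 and 0, the IGF2BP2 libraries 0 and 1, the IGF2BP3 libraries 0 and 1, and the bio2 libraries 0 and 0. Every METTL1 and WDR4 library was above every IGF2BP library, as in 1.26% of the 6721 protein-coding genes tested, and 5 of the 8 IGF2BP libraries were at 0.

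No cluster of any of the 12 libraries lay in the 2153 nt of the IGF2BP3 3′ UTR or in its coding sequence of 1740 nt. Windows of 20 nt found once in the genome made up 38.3% of the positions of this 3′ UTR, and windows found more than 10 times made up 1.4995%. In the IGF2BP2 3′ UTR, which had 4 sites, 48.2% of the windows were found once, and in the HMGA1 3′ UTR, which had 12, 24.1%. The part that copies of these sequences played in the calling of clusters was not tested.

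The sites in the IGF2BP3 gene repeated rarely. Site 8, an intronic site in both METTL1 libraries and 1 WDR4 library, was the only one of the 16 seen in 2 libraries of a protein, and its centre occurred at 28 places in the genome. Sites 4, 11 and 12 were seen in 2 libraries each, and the other 12 in 1.

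LIN28B, the inhibitor of let-7 maturation, held 13 sites (chr6:104936616-105083332, + strand), 10 of them intronic. Clusters numbered 1 and 2 for IGF2BP1, 1 and 0 for IGF2BP2, 1 and 1 for IGF2BP3 and 1 and 2 for bio2. METTL1 had 1 and 2, and WDR4 had 3 and 4. The counts were low throughout, and the WDR4 libraries held the most.

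All 10 METTL1 and WDR4 clusters in LIN28B were intronic, against 3 of 9 in the IGF2BP libraries. The single 3′ UTR site, at 2428 nt of 4549 nt, was seen in both IGF2BP1 libraries and both IGF2BP3 libraries without the bio2 label, and in none of the others. It ended upstream of the let-7 match at 2471 nt, at a distance of 23 nt, and the other 3 matches were 205 to 2358 nt away. The only coding-sequence site among the 6 genes, LIN28B site 12, was seen in 1 bio2 library. Their central 30 nt read as follows.
LIN28B site 13, 3′ UTR, chr6:105081197-105081226 (+): caaaacaaaccaaataacttatacctttat
LIN28B site 12, coding sequence, chr6:105078579-105078608 (+): atcccagccatgcacttcaactctccctcg

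HMGA1 (chr6:34236873-34246231, + strand) encodes an AT-hook protein that bends DNA and shapes chromatin in dividing cells. Clusters numbered 8 and 8 for IGF2BP1, 6 and 10 for IGF2BP2, 4 and 6 for IGF2BP3, and 4 and 0 for bio2. For METTL1 there were 4 and 3 clusters, and for WDR4 1 and 2. Per 10000 clusters of the library, the IGF2BP2 libraries were highest, at 13.1 and 13.4, and the groups overlapped, since 1 bio2 library at 0 and both IGF2BP1 libraries lay below the METTL1 library at 6.05.

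Of the 14 HMGA1 sites, 12 lay in the 3′ UTR and together covered 45.3% of its 1347 nt. That was 8.91 sites per kb of 3′ UTR, above 99.9% of 4009 genes that had at least 1 site in a 3′ UTR of 500 nt or more, whose median was 0.753. This density depends on the merging, since HMGA1 sites 4 and 5 lie directly next to each other, as do sites 9 and 10. With clusters up to 10 nt apart merged, the 3′ UTR sites of the 6 genes fell from 41 to 36. Of the 12 HMGA1 sites, 4 were seen in 1 library. HMGA2 had 3.33 sites per kb (above 95.7% of those genes), IGF2BP1 2.09 (88.3%), IGF2BP2 1.67 (81.9%) and LIN28B 0.220 (6.61%). Sites 4 and 8, at 130 and 597 nt after the HMGA1 stop codon, were seen in 7 IGF2BP libraries and in no METTL1 or WDR4 library. Site 12, at 898 nt, went the other way, with both METTL1 libraries and no other. Of the 12 sites, 7 had a centre found more than once in the genome, where reads could also belong to a near-identical copy of HMGA1, so that their assignment to this gene is uncertain.

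HMGA1 site 1, in the 5′ UTR close to the annotated start of the gene, was seen in 9 libraries and was absent from the bio2 pair and 1 WDR4 library. The HMGA1 let-7 match at 960 nt lay inside site 13, which was seen in 1 library, IGF2BP2 replicate 2. The most shared sites of the 5′ UTR and 3′ UTR are shown with CAUA, CAUC and CAUU in capitals.
HMGA1 site 1, 5′ UTR, chr6:34236888-34236917 (+): tgagccggtgctgcgctcctctaattggga
HMGA1 site 7, 3′ UTR, chr6:34245232-34245261 (+): ctctgggcttttggtttgggggcgccctct
HMGA1 site 6, 3′ UTR, chr6:34245161-34245190 (+): aggctaaCATCccacttagccgcaccctgc

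HMGA2 (chr12:65824460-65966291, + strand), an embryonic AT-hook protein and a classical let-7 target, carried 86 clusters and 19 sites. The IGF2BP1 libraries held 13 and 14 clusters, the IGF2BP2 libraries 4 and 5, the IGF2BP3 libraries 10 and 9, and the bio2 libraries 7 and 7. For METTL1 there were 5 and 6, and for WDR4 2 and 4. Per 10000 clusters, the IGF2BP3 libraries were the highest of the 12, at 15.5 and 13.2, and the WDR4 libraries the lowest, at 2.05 and 4.35. The groups overlapped in a narrow range, between an IGF2BP2 library at 6.69 and a METTL1 library at 7.56.

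HMGA2 had 10 sites in a 3′ UTR of 2999 nt, and all 10 were seen in both IGF2BP1 libraries. Of these, 7 were seen in IGF2BP libraries alone and 3 in both kinds. Site 11, at 1052 nt, was the only one of the 106 sites found in all 12 libraries. It was made up of 95.1% pyrimidines and its centre occurred at 27 places in the genome. Unlike in IGF2BP1, the bio2 libraries held 7 of these 10 sites, with 5 of them in both libraries.

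Site 14 of HMGA2, at 1249 nt, was seen in 10 libraries, namely all 8 of IGF2BP and both of METTL1, and had a centre found once in the genome. It contained the let-7 match at 1256 nt, printed above as HMGA2 match 2. Site 19, in 6 libraries, contained the match at 2521 nt, printed as match 4. The match at 1668 nt was 88 nt from site 15, and the one at 21 nt was 427 nt from the nearest site. In the 5′ UTR, sites 1 and 4 were seen in 10 and 8 libraries and had centres found at 70226 and 15 places in the genome. The most shared sites of the 5′ UTR and 3′ UTR are shown for their runs of C and U.
HMGA2 site 1, 5′ UTR, chr12:65824710-65824739 (+): ctcttctctctctctctctctctctctctc
HMGA2 site 11, 3′ UTR, chr12:65964330-65964359 (+): tctctctctcttcctctccctctctctttt

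**Figure D2:**
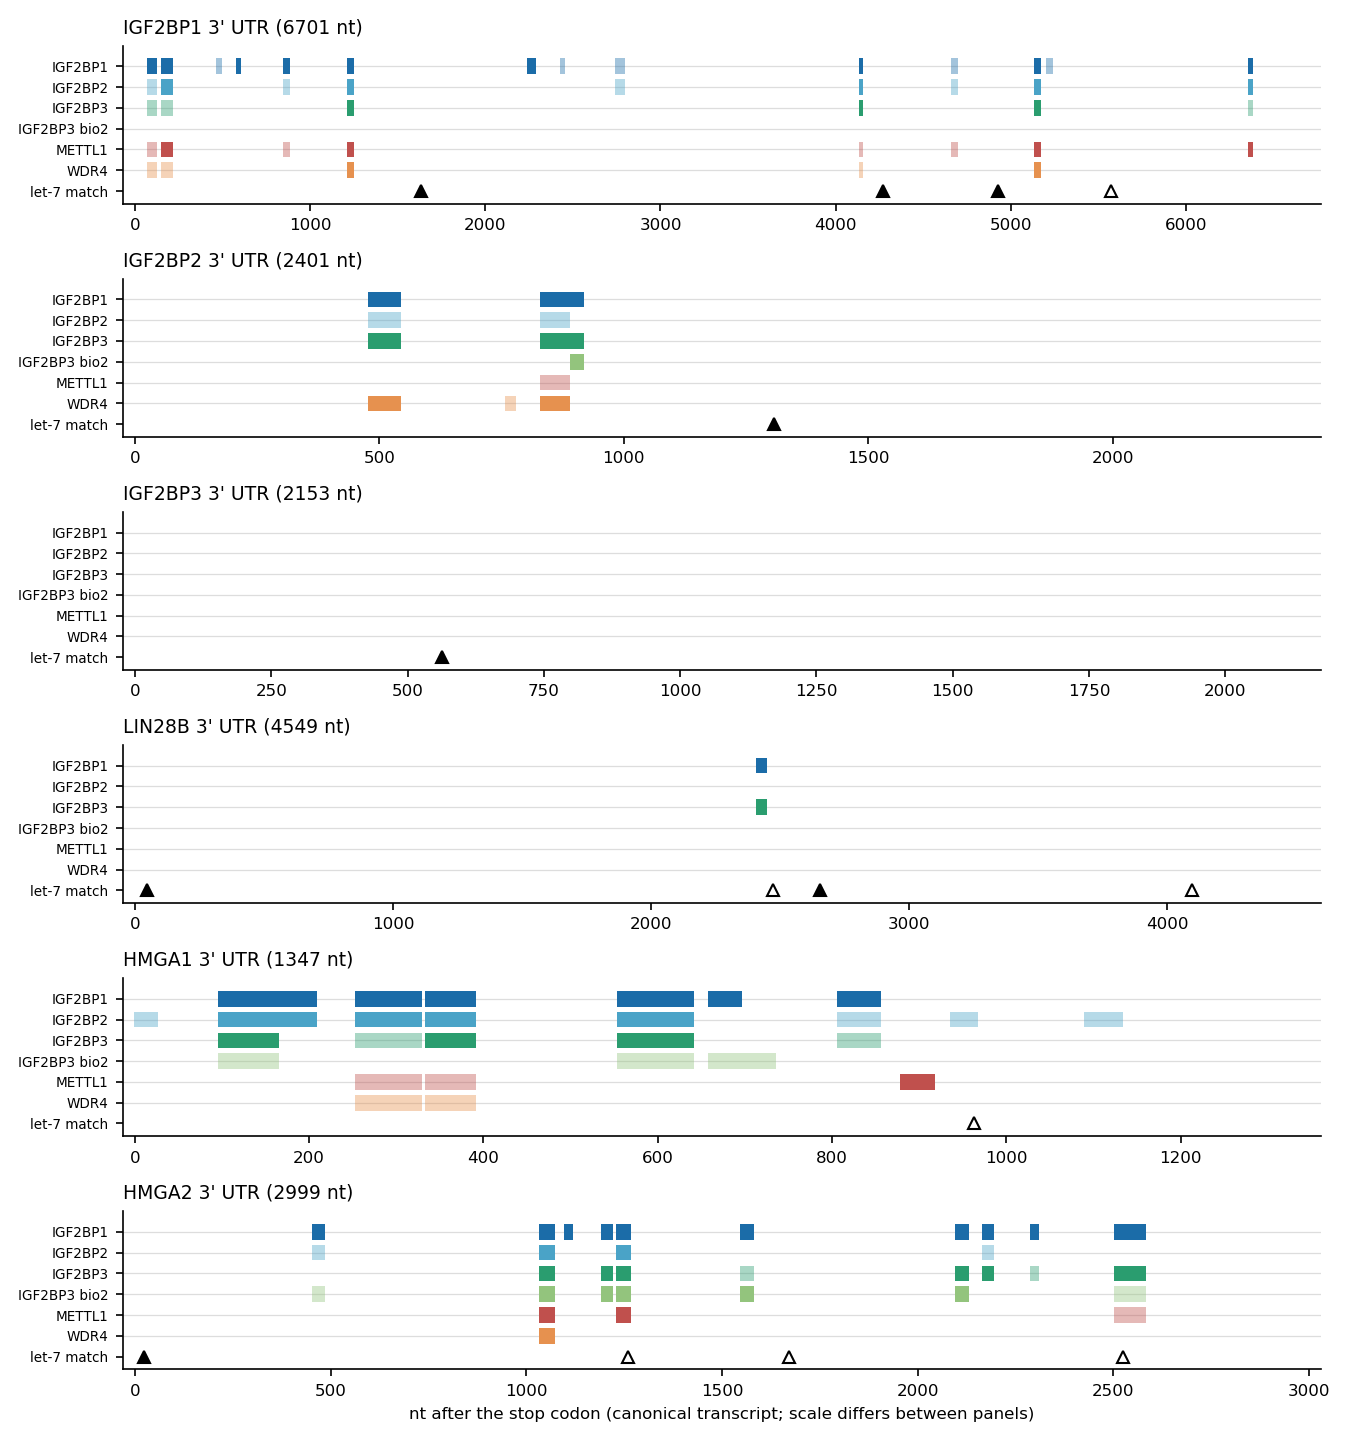
Merged sites in the 3′ UTR of each gene by distance from the stop codon of the canonical transcript (x axis, nt), with a row for each library pair; solid bars mark sites in both libraries of a pair and pale bars sites in 1. Triangles mark let-7 seed matches, filled for 8-mers (the match followed by A). Bars stand above 2 of the 4 HMGA2 matches, the IGF2BP3 panel is empty, and the bio2 row is empty in IGF2BP1.

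Over the 6 genes, 3 of 15 let-7 matches (20%, exact Clopper-Pearson 95% interval 4.33% to 48.1%) lay inside a site. The interval covers counting error only, and matches in one 3′ UTR are not independent. In all protein-coding genes with a 3′ UTR site, 13.7% of 893 matches lay inside a site, and sites covered 3.53% of the 3′ UTR sequence, against 8.81% in the 6 genes. The share in the 6 genes was thus within counting error of that in all genes. All 3 covered matches were 7-mers, and none of the 8 that were followed by A was covered. Over all genes, 27 of 321 matches followed by A (8.41%) lay inside a site, so 8 matches are too few to show a difference.

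The lists of 3′ UTR sites of the 3 IGF2BP proteins overlapped in these genes. IGF2BP1 was found at 35 of the 41 3′ UTR sites, IGF2BP2 at 24, IGF2BP3 at 23 and the bio2 pair at 12. All 23 sites of IGF2BP3 and 21 of the 24 of IGF2BP2 (87.5%) were among the 35 of IGF2BP1, which is 65.7% and 60.0% of the IGF2BP1 sites. With IGF2BP1 at 35 of the 41 sites, most sites of any list would fall among its own. The same shares over all 3′ UTR sites are not given here. The IGF2BP1 libraries held the most clusters, so that the larger list cannot be told apart from their size. IGF2BP2 and IGF2BP3 shared 16 sites, 66.7% and 69.6% of their lists, and each of these was also an IGF2BP1 site. These overlaps are given as a description, and the 3 proteins were not tested against each other.

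The IGF2BP3 and bio2 pairs, prepared against the same protein, differed within these genes. They shared 9 of the 3′ UTR sites, 39.1% and 75.0% of their lists, and of all clusters in the 6 genes 41.6% were shared over the 4 pairs of libraries across the labels. The share across the labels over all clusters is not given here, so this difference is not shown to be particular to these genes. Within the pair without the label 82.4% were shared, beside 73.7% of all its clusters. Within the bio2 pair 61.5% were shared, beside 70.5%, the only pair in which the share was lower in these genes than over all clusters. That share rests on 16 of 26 clusters. The bio2 clusters were narrower, with a median width of 34 and 35 nt against 41 and 41 nt. In the other pairs, the clusters in these genes were shared to 84.3% for IGF2BP1, 63.8% for IGF2BP2, 41.5% for METTL1 and 29.2% for WDR4, beside 71.0%, 53.6%, 26.3% and 27.7% of all their clusters.

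METTL1 was found at 15 of the 41 3′ UTR sites and WDR4 at 11. Of the METTL1 sites 14 (93.3%), and of the WDR4 sites 10 (90.9%), were also IGF2BP1 sites, but IGF2BP1 was at 35 of the 41. METTL1 and WDR4 shared 13 and 10 sites with IGF2BP2, 12 and 10 with IGF2BP3 and 3 and 1 with the bio2 pair. With each other they shared 9. In the IGF2BP1 3′ UTR there were 8 METTL1 and 5 WDR4 sites, while in that of HMGA2 there were 3 and 1. IGF2BP2, HMGA1 and LIN28B had 1, 3 and 0 METTL1 sites and 3, 2 and 0 WDR4 sites.

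**Figure D3:**
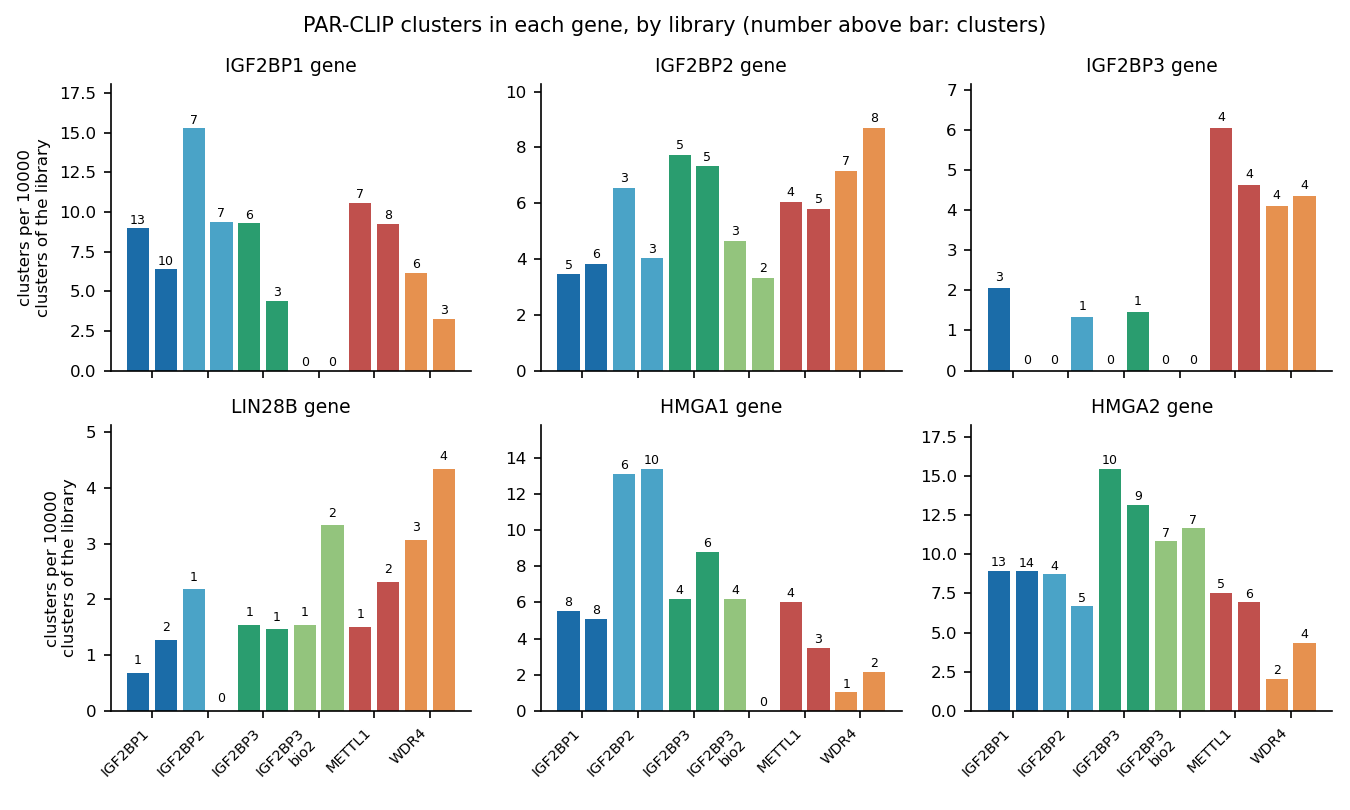
Clusters in each gene per 10000 clusters of the library (y axis, linear, scaled to each gene), with 1 bar for each of the 12 libraries and the number of clusters above it. The METTL1 and WDR4 libraries are all above the IGF2BP libraries in the IGF2BP3 gene, and the bio2 libraries are at 0 in the IGF2BP1 gene.

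The number of clusters per 10000 was compared between the 8 IGF2BP and the 4 METTL1 and WDR4 libraries for 6721 protein-coding genes by a two-sided exact permutation test of the library labels, with Benjamini-Hochberg adjustment over all genes. No gene was called higher (0%) or lower (0%) in IGF2BP libraries at an adjusted p under 0.05, and 1105 genes had an unadjusted p under 0.05. The smallest p was 0.00202, reached by 185 genes where 272 were needed for a call. Genes with all IGF2BP libraries above the others made up 2.56%, and those with all below 1.26%. The median difference over all genes was 0.118.

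IGF2BP3 was the only one of the 6 genes whose groups did not overlap. Its mean was 0.609 ± 0.866 (SD, n = 8) in IGF2BP and 4.78 ± 0.873 (SD, n = 4) in METTL1 and WDR4 libraries, a difference of -4.17 (exact permutation p = 0.00202, adjusted p = 0.0734). The difference was more negative in 0.104% of genes. HMGA2 differed the other way, with 10.6 ± 2.82 against 5.22 ± 2.53, a difference of 5.33 (exact permutation p = 0.00808, adjusted p = 0.164), and 99.4% of genes had a smaller difference. These ranks are of absolute differences, which can be larger in genes with more clusters. HMGA2 had more clusters than 99.4% of genes and IGF2BP3 more than 86.3%. Neither gene passed the adjusted threshold over the 6721 genes. The libraries are replicates within proteins, which this test did not take into account. With proteins as units, the exact permutation p was 0.1 for IGF2BP3 and 0.2 for HMGA2. That setting has 10 splits and a smallest p of 0.1, so no gene could fall under 0.05.

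The other 4 genes differed by less in relation to their spread. HMGA1 had 7.28 ± 4.42 in IGF2BP and 3.18 ± 2.16 in METTL1 and WDR4 libraries (exact permutation, adjusted p = 0.324). IGF2BP1 had 6.71 ± 5.18 and 7.31 ± 3.28 (exact permutation, adjusted p = 0.926), and this difference changed sign without the bio2 libraries, from -0.602 to 1.63. IGF2BP2 had 5.11 ± 1.81 and 6.92 ± 1.32 (exact permutation, adjusted p = 0.334), and LIN28B 1.504 ± 0.984 and 2.81 ± 1.21 (exact permutation, adjusted p = 0.297).

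The exonic share of clusters, given above, differed between the 2 groups of libraries, and its part in these differences was not tested. Counting exonic clusters alone, per 10000 clusters of the library, the difference was 5.13 for HMGA2 (exact permutation p = 0.00606) and -0.748 for IGF2BP3 (exact permutation p = 0.0909), while LIN28B turned from -1.31 to 0.830 (exact permutation p = 0.109). Counting exonic clusters alone, per 10000 exonic clusters of the library, the difference was 1.94 for HMGA2 (exact permutation p = 0.527) and -2.47 for IGF2BP3 (exact permutation p = 0.0909), and LIN28B was at 1.42 (exact permutation p = 0.109). In the same setting IGF2BP2 was at -1.39 (exact permutation p = 0.505). Per 10000 exonic clusters but with all clusters of the gene counted, IGF2BP2 and IGF2BP3 passed the threshold as lower in IGF2BP libraries (exact permutation, adjusted p = 0.0487 for both). They were among 239 lower genes of 6721 tested, beside 40 higher genes. That denominator raises the rates of libraries with a small exonic share, here those of METTL1 and WDR4, for genes with intronic clusters.

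**Figure D4:**
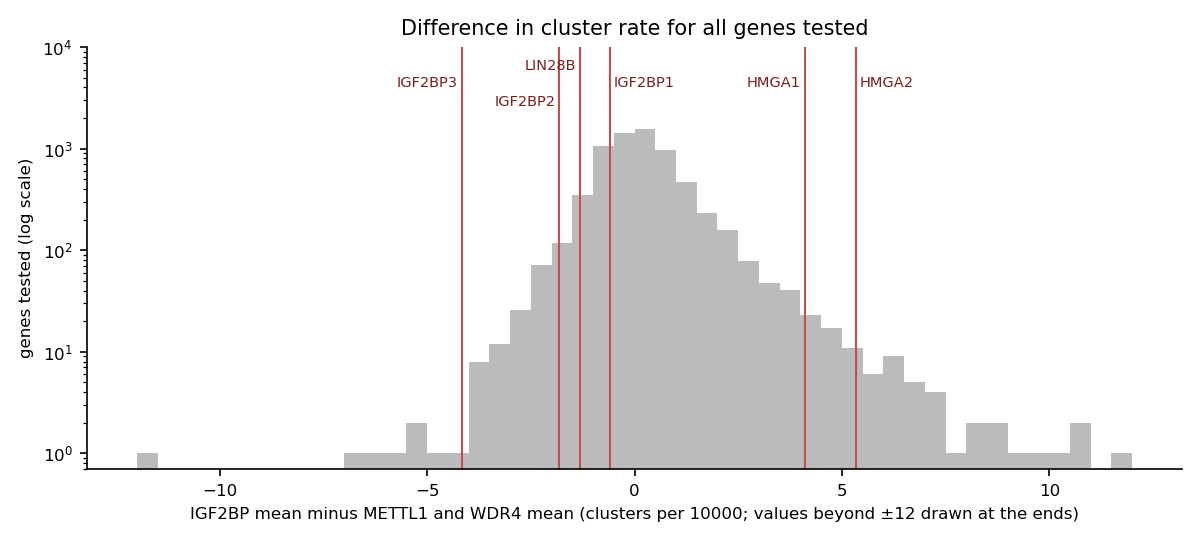
Difference in mean clusters per 10000 between IGF2BP and METTL1 and WDR4 libraries for 6721 genes (x axis), with the number of genes on a log scale (y axis) and red lines at the 6 genes. HMGA1 (4.10) and HMGA2 (5.33) lie in the upper tail and IGF2BP3 (-4.17) in the lower one. HMGA1 and HMGA2 also had more clusters than 98.3% and 99.4% of genes.

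Sequence elements at the 41 3′ UTR sites were counted in windows of 41 nt around the site centre, on the strand of the gene. CAUA, CAUC or CAUU was present in 20 windows (48.8%), beside 47.5% of all 11137 3′ UTR windows of the same length. Within the 6 genes it was found in 7 of 10 sites of HMGA2, 6 of 12 of HMGA1, 3 of 4 of IGF2BP2, 4 of 14 of IGF2BP1 and 0 of 1 of LIN28B. GGAC, which holds the centre of the m6A consensus, was present in 4 windows (9.76%), beside 6.88%. CTACCTC was present in 2 windows (4.88%), beside 1.04%, a contrast partly built into the choice of let-7 regulated genes. A match of these letters is a description and not a binding site.

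Other genes described as let-7 targets were examined beside the 6. Of 25, 17 had a cluster and 16 were tested. In the main comparison none was called in either direction. A higher mean in IGF2BP libraries was found for 13 of 16, beside 54.4% of all genes tested. The median difference was 0.860, beside 0.118 for all genes. CDK6, a kinase of the G1 phase, had 60 clusters, with means of 8.29 in IGF2BP and 1.42 in METTL1 and WDR4 libraries (exact permutation p = 0.00202, adjusted p = 0.0734). NRAS, with 25 clusters, was also higher in IGF2BP libraries, with means of 3.50 and 0.817 (exact permutation p = 0.00202, adjusted p = 0.0734). RRM2, a subunit of ribonucleotide reductase, differed the other way at the same p, with 10 clusters and means of 0.263 and 2.27 (exact permutation p = 0.00202, adjusted p = 0.0734). NRAS and RRM2 were not among the genes of the list with the most clusters and were named after their values were seen. The same p was reached by 185 of the 6721 genes tested. TRIM71, an RNA-binding ubiquitin ligase of embryonic cells, had 55, with means of 4.89 and 6.47 (exact permutation, adjusted p = 0.297). DICER1, which cuts microRNA precursors, IGF1R and NR6A1 had 27 each. LIN28A, the paralogue of LIN28B, had none.

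Of 8 other oncofetal liver genes, 7 had a cluster, 6 were tested and none was called. IGF2, the fetal growth factor whose mRNA gave the IGF2BP family its name, had 385 clusters, with means of 40.7 in IGF2BP and 42.0 in METTL1 and WDR4 libraries. PEG10, a retrotransposon-derived imprinted gene, had 126, with 16.4 and 6.17 (exact permutation, adjusted p = 0.282). GPC3, a fetal liver glypican used as a marker of liver cancer, had 99, with 11.02 and 7.59 (exact permutation, adjusted p = 0.459). SALL4 had none.

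The genes whose rates across the 12 libraries were most like each of the 6 were found among 1999 genes with 12 or more clusters, by Pearson's r over 12 libraries and with no test. For IGF2BP1 they were KMT2D, ARID3A and EEF1A1 (r = 0.939, 0.929 and 0.895), and for HMGA2 DCTN5, SERPIND1 and KMT2E (0.910, 0.905 and 0.904). For HMGA1 they were DDI2, GPR107 and RBAK-RBAKDN (0.879, 0.875 and 0.863), and for IGF2BP2 MAP4K3, NBPF8 and PABIR2 (0.883, 0.802 and 0.790). For LIN28B they were ITPR2, RPL37A and BRAF (0.875, 0.811 and 0.780), and for IGF2BP3 they were CCDC200, MAP4 and a gene without a symbol (0.894, 0.890 and 0.878). None of the 6 genes was among the 3 most like another of them. The points share library size, and rates of a few clusters are coarse.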

How the data were processed

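PAR-CLIP clusters were deposited for 12 libraries. According to the methods, reads were quality filtered, clipped and collapsed by the authors with the FASTX toolkit, then aligned with Bowtie, and PARalyzer called the clusters. The submitters' processing notes name hg38. Versions and PARalyzer settings were not given in the sources used here. The deposited files hold cluster intervals per library without counts or scores, so read depth is unknown. Reads mapping to several places were kept up to a limit, which can place clusters in copies of a gene.

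Starts were read as counted from 1, since the base before a cluster was G in 74.5% to 94.7% of clusters. Clusters overlapping by at least 1 nt on a strand were merged into sites. A site was reproducible when found in 2 libraries of a protein. Regions followed GENCODE release 44, and let-7 matches the Ensembl canonical transcript. The number of copies of a site was the median, over its clusters, of the occurrences of the central 20 nt in hg38. Genes with a cluster in at least 2 libraries were tested by exact permutation of library labels, with a threshold of 0.05. According to the methods, plates were seeded anew for every replicate, but neither they nor the labels say how far these cultures were separate in time or passage, so p-values may measure technical spread. To see whether replicate numbers pair libraries, 15 correlations of replicate differences across genes were computed. They lay between -0.0441 and 0.0422, so that they were not taken as pairs.

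The members, lists and tests were chosen with earlier results of these data known. Named sites were the 3 found in most libraries for each gene, with others named after their values were seen, as were the genes NRAS and RRM2. Alternatives changed the denominator, the clusters counted, the unit, the merging and the let-7 match, and left out libraries. Exonic clusters per exonic clusters was added after seeing the data. The test was tried on simulated counts for 6721 genes, in which 97.0% of 200 genes changed 8-fold had an unadjusted p under 0.05, as had 2.64% of unchanged genes, and none passed adjustment. Of 200 genes changed 2-fold and 4-fold, 26% and 74% had an unadjusted p under 0.05. With 800 genes changed 8-fold, 362 of them and 14 unchanged genes passed. The simulated counts were Poisson with no further spread between libraries or proteins, and genes with low mean counts were not changed. The simulated rates therefore need not hold for the real libraries, in which 1105 genes had an unadjusted p under 0.05. Python 3.11.15, numpy 2.4.6, scipy 1.17.1, intervaltree 3.1.0, pysam 0.24.0 and samtools 1.23.1 were used.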

Additional observations from a re-analysis of the deposited data

How the results depend on the processing

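The number of genes called was 0 in the main comparison and under 23 of 25 alternatives, the 12 that left out 1 library included. It was 279 per 10000 exonic clusters, of which 40 were higher and 239 lower in IGF2BP libraries. Among the 4512 genes with a cluster in at least 4 libraries it was 185, with 100 higher and 85 lower. IGF2BP3, with clusters in 7 libraries and the smallest p of the test, was among these 85, as was RRM2. CDK6 and NRAS were among the 100.

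The difference in rate between IGF2BP and METTL1 and WDR4 libraries kept its sign for IGF2BP3 under all 23 alternatives run for it, and for HMGA2 under the same alternatives other than the presence of a cluster. For IGF2BP1 it was -0.602 and turned to 0.593 with exonic clusters alone, 0.0824 with clusters at or above the median width, 0.494 with proteins as units and 1.63 without the bio2 libraries. It ranged from -1.95 to 0.489 when 1 library was left out, and changed sign without METTL1 replicate 1 (0.489), METTL1 replicate 2 (0.0451) or either bio2 library (0.356). With exonic clusters alone IGF2BP2 turned from -1.81 to 0.868 and LIN28B from -1.31 to 0.830, and LIN28B was 1.42 per 10000 exonic clusters. The presence of a cluster gave -0.125 for HMGA1 and 0 for HMGA2 and IGF2BP2, in which all 12 libraries had one. Per 10000 exonic clusters of the library, with all clusters of the gene counted, IGF2BP2 (-14.9) and IGF2BP3 (-14.8) passed the threshold, among 239 lower genes of 6721. The cause of these changes was not tested. Leaving out 1 library gave -2.19 to -1.22 for IGF2BP2, -4.40 to -3.75 for IGF2BP3, -1.74 to -0.795 for LIN28B, 3.23 to 5.14 for HMGA1 and 4.27 to 6.11 for HMGA2.

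With the replicate number as a block, 0 genes were called, and the differences were by construction those of the main test, with an exact permutation p of 0.00444 for IGF2BP3 and 0.0133 for HMGA2 in place of 0.00202 and 0.00808. The pairing correlations did not make the numbers pairs. Merged sites numbered 106, and 94 to 107 under the alternatives, with 36 to 42 in the 3′ UTR and 20 to 23 seen in both kinds of library. The covered share of let-7 matches was 20%, 0% for 8-mers, 20.8% with 6-mers and 13.3% to 20% when 1 library was left out, the lowest without IGF2BP2 replicate 2. Over all genes the covered share was 8.41% for 8-mers and 9.32% with 6-mers. Read depth is unknown, and the smallest p the test allows limited what could be called.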

Other observations

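On the strand opposite to the 6 genes, 2 clusters were found, 1 in IGF2BP3 and 1 in HMGA2.

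The 41 sites in 3′ UTRs had a median of 62.1% C and U, beside 64.0% for all 11137 3′ UTR sites, and the values ran from 35.6% to 95.1%. Sites seen in both kinds of library had a median of 60.3%, and those of IGF2BP alone 62.3%. The highest value in the 6 3′ UTRs was at HMGA2 site 11, the site found in all 12 libraries. Clusters in the 6 genes had a median width of 39 nt in IGF2BP libraries and 37 nt in METTL1 and WDR4 libraries, beside 39 and 40 nt for all clusters.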
